A study of Mus musculus with 36 samples.

Results

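The genes described here are 38 members of the machinery that copies DNA in S phase, matched by symbol to mouse Ensembl genes. The choice was made by their known roles, but with earlier results of these data known. They are 38 of the 49585 genes in each deposited table, and all 38 passed the filter on low counts. The tables hold RNA-seq counts of mouse embryonic fibroblasts in which Tbk1, a kinase that relays signals from receptors for viral nucleic acid and takes part in mitophagy, is unaltered (WT), carries the N129D change on 1 allele (het) or carries it on both (hom). The WT lines were E2.1, E1.5 and E2.7, the het lines E2.8, E1.3, E2.5 and E2.6, and the hom lines E2.9, E1.4 and E2.2. Every line gave 1 untreated library, 1 after 4 h with poly(I:C), a synthetic mimic of viral double-stranded RNA, and 1 after 4 h with antimycin and oligomycin (AO), which block respiratory complex III and ATP synthase, making 30 libraries in 9 groups. For line E1.5 another 6 libraries cover high and low cell density, 1 for each density and treatment. All groups share culture in DMEM. The labels name lines but not the litter or passage behind them. In the fit without a line term, p-values measure the spread between lines of a group, with the libraries of a line treated as independent. With a line term they measure the spread left after the level of each line is removed. Gene counts cannot show the N129D change, so the genotype labels were not checked here.

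DNA replication is prepared in G1, when the origin recognition complex, Cdc6 and Cdt1 load the MCM helicase onto origins. Cyclin E and its kinase then trigger entry into S phase, Cdc45 and the GINS complex turn the helicase on, and polymerases, the sliding clamp PCNA and its loader, single-strand binding proteins, Fen1 and Lig1 copy and join the strands. Many of these genes are known targets of E2F transcription factors and peak in late G1 and S phase in cycling cells such as cultured fibroblasts.

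The 30 libraries with no stated density held 3689144 to 14879227 counts each, the high-density ones 16474011 to 22756870 and the low-density ones 5391393 to 6307963. The lowest count of any of the 38 genes in any library was 58. In these 30 libraries 10 to 12 of 12 fibroblast markers had counts, and their summed level was 7759 to 18451 CPM (counts per 1000000 counts). Marker CPM are taken of the library total, while CPM of single genes are taken of the scaled library. In lines E2.6 and E2.9 all 12 macrophage markers had counts, with summed levels up to 56.0 and 244.2 CPM, against at most 3.65 CPM in WT lines. Line E2.6 also had the highest summed skeletal muscle marker level in each treatment, up to 15.1 CPM against at most 2.98 CPM in WT lines. Only 1 of these 7 markers, Acta1, had counts in E2.6 with poly(I:C) and with AO, and 4 of 7 had counts untreated. Line E1.4 had the highest smooth muscle marker levels of the hom lines. Erythroid markers were at 0.573 CPM or less. Line E2.6 was the lowest of the 10 lines for many of the 38 genes, and counts made without it, and without both it and E1.4, are given with the differences between lines.

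Promoter sequence was available for 30 of the 38 genes, as RefSeq windows on GRCm38.p6 that run from 250 bases before to 50 after an annotated start. They were searched on both strands for the E2F-type words TTTGGCGC, TTTCGCGC, TTTCCCGC and TTTGCCGC, which can overlap each other. A match was present in 14 of the 30 genes (14 of their 35 windows), while 744 of all 32851 mouse windows (2.26%) held one. All windows include those of genes that were not tested here. Among tested genes with a window, grouped by their poly(I:C) change, 4.49% to 6.61% held a match. The 14 genes were Cdc6, Cdt1, Gins3, Lig1, Mcm3, Mcm5, Mcm6, Mcm7, Orc1, Pola1, Pold1, Pold3, Rfc3 and Uhrf1. For the CCAAT box, 19 of the 30 genes held a match (21 of their 35 windows), while 37.4% of all windows held one. For the word TTTGAA, 4 of the 30 genes did (4 of their 35 windows), against 17.9% of all windows. The upstream stretches of Mcm6 and Mcm5, which rose with poly(I:C), and of Rrm2 and Ccne1, which fell with AO, are shown because the results turn on these genes. The capitals mark the E2F-type matches, which the first pair holds and the second does not. Other genes that changed do not follow this split. Gins3, which fell with AO, held a match, and Cdc45, Orc6 and Rfc4, which rose with AO, did not. The stretches end at the base before the first annotated gene start, and were chosen after the values were seen. Mcm6 lies on the minus strand at chr1:128359706-128359955, Mcm5 on the plus strand at chr8:75109259-75109508, Rrm2 on the plus strand at chr12:24708004-24708240 and Ccne1 on the minus strand at chr7:38107535-38107740.
Mcm6: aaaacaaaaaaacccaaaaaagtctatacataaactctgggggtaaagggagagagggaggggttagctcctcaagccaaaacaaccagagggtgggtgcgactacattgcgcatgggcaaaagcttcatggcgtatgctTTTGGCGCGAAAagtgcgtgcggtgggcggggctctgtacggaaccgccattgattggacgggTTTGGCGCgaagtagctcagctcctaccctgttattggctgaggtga
Mcm5: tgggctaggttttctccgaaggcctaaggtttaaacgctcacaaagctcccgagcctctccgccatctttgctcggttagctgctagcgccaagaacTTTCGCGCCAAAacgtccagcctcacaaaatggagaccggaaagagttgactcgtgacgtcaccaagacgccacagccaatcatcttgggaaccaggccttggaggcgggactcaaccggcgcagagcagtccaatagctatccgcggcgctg
Rrm2: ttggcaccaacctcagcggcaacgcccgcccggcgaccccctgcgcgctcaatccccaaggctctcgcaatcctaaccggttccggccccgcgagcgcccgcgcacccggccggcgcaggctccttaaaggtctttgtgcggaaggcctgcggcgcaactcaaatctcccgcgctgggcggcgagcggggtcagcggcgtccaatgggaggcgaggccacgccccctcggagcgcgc
Ccne1: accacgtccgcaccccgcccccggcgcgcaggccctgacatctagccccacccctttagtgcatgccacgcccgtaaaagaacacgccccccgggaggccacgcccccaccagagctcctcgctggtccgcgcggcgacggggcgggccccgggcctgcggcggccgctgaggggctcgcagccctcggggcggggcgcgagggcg

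Each of these upstream stretches is read 5′ to 3′ along its gene. In Mcm6 a pair of overlapping matches began 110 and 106 bases before the RefSeq start and another 47 bases before it, and in Mcm5 an overlapping pair began 153 and 149 bases before the start. Sites of Mcm3, Mcm7, Cdc6, Lig1, Uhrf1 and Cdt1, which each rose with a treatment, are shown as 30-base stretches, again with the match in capitals, because their windows reach into the transcribed part of the gene. The Mcm3 stretch holds 2 matches. Another match of Mcm7 and the match of Gins3, which fell with AO, are not shown.
Mcm3: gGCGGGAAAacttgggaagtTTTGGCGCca
Mcm7: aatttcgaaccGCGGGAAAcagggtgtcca
Cdc6: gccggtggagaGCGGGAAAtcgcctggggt
Lig1: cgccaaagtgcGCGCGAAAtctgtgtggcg
Uhrf1: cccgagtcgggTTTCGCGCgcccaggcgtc
Cdt1: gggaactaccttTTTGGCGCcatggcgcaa

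They lie at chr1:20820265-20820294 (minus strand), chr5:138172030-138172059 (minus), chr11:98908002-98908031, chr7:13278841-13278870, chr17:56304117-56304146 and chr8:122568035-122568064 (all plus). A match is only a description of these letters.

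In untreated cells the 38 genes spanned a wide range of levels. Per kb of the main annotated transcript, Pcna, the sliding clamp, had the highest median over the 10 lines at 233.6 CPM per kb. Mcm6, Rrm1 and Mcm7 followed at 125.6, 118.0 and 102.9 CPM per kb. The other subunits of the MCM helicase lay between 62.4 (Mcm5) and 84.9 (Mcm3) CPM per kb, with Mcm4 at 75.8 and Mcm2 at 76.6. The lowest levels were those of Gins3, a subunit of the helicase activator GINS, at 7.41 CPM per kb, and of Orc1, the largest subunit of the origin recognition complex, at 8.47 CPM per kb. Mcm6 was above Mcm5 in every line, since the lowest line of Mcm6 had 93.8 and the highest of Mcm5 67.8 CPM per kb, while the ranges of Mcm2, Mcm3 and Mcm4 overlapped.

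With AO, averaged over the 3 genotypes, 8 genes rose and 5 fell, 13 of 38 at an adjusted p under 0.05 in edgeR, where 33.7% of all 13364 tested genes passed (17% higher and 16.7% lower), so the share that passed was close to that of all genes. The median log2 difference of the 38 genes was 0.08, against -0.02 for all genes. The genes that rose act in licensing and helicase activation (Cdt1, Orc6, Mcm3, Mcm4, Cdc45, Gins2) or were Rfc4 of the clamp loader and Prim2 of primase. Those that fell were both cyclin E genes, both subunits of ribonucleotide reductase and Gins3. With the line as a block, which compares the treatments within each line, 15 rose and 7 fell, where 50.2% of all genes passed (23.5% higher and 26.7% lower). In bulk RNA, fewer cells in S phase and less RNA per cell cannot be told apart.

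Of the licensing factors, Cdt1, which loads the MCM helicase and is destroyed in S phase, changed most. In the WT lines (E1.5, E2.1, E2.7) it went from 52.6, 49.1 and 59.9 CPM to 93.2, 103.5 and 99.4 CPM. In het cells (E1.3, E2.5, E2.6, E2.8) it went from 66.3, 62.9, 51.5 and 56.4 to 96.9, 97.3, 71.3 and 105.7 CPM, and in the hom lines (E1.4, E2.2, E2.9) from 83.2, 62.5 and 62.6 to 164.6, 98.0 and 106.4 CPM. It rose in all 10 lines, and within each genotype the AO and untreated levels did not overlap. The mean change was 0.78 ± 0.10 log2 (SE, adjusted p = 1.4e-06). It passed in each genotype alone, at 0.88 ± 0.18 in WT, 0.65 ± 0.15 in het and 0.82 ± 0.18 in hom. The WT call was lost without line E1.5 (adjusted p = 0.0523) or E2.1 (0.102), and the het call without line E2.8 (0.106).

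Orc6, the smallest subunit of the origin recognition complex, was also higher with AO in all 10 lines. Its untreated levels were 87.5 to 117.2 CPM with a median of 91.2, and its AO levels were 104.4 to 227.1 CPM with a median of 125.4. The highest value, 227.1 CPM, was that of hom line E1.4. The change was 0.50 ± 0.08 log2 (adjusted p = 5.39e-05) over the genotypes and 0.75 ± 0.15 in hom cells (adjusted p = 0.00201), the single-genotype call in this gene. Fitted with the line as a block it passed in WT and het cells too (0.38 ± 0.11 and 0.36 ± 0.10).

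Among MCM subunits, which form the replicative helicase, the responses were uneven. Mcm3 went from a median of 257.4 CPM (220.0 to 273.1 over lines) to 301.2 CPM (218.6 to 319.9), higher in 9 of 10 lines, a change of 0.23 ± 0.06 log2 (adjusted p = 0.00298). The exception was line E2.6, at 220.0 and 218.6 CPM. Mcm4 was higher in all 10 lines, from a median of 272.1 (225.2 to 310.1) to 332.2 CPM (239.5 to 358.7), a change of 0.25 ± 0.07 (adjusted p = 0.0058). Mcm5 and Mcm6 differed by -0.03 ± 0.05 and 0.07 ± 0.08, and did not pass in either fit. Mcm2 (0.15 ± 0.05, adjusted p = 0.0176) and Mcm7 (-0.10 ± 0.04, adjusted p = 0.0449) passed only with the line as a block, in opposite directions, and Mcm7 was lower in all 10 lines. Mcm2 went from 258.2 (196.3 to 285.7) to 299.5 CPM (196.8 to 313.9), and line E1.4, where it was lower with AO, and line E2.6 had the lowest AO levels. Orc1 and Cdc6, the loading ATPase, did not pass in either fit, and Cdc6 had medians of 63.1 (52.7 to 66.4) and 62.0 CPM (51.2 to 66.7).

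Of the genes that switch the helicase on, Cdc45 was higher in all 10 lines, from a median of 70.3 CPM (56.1 to 82.1) to 90.8 CPM (68.5 to 106.3), a change of 0.34 ± 0.07 log2 (adjusted p = 0.000897). Of the GINS subunits, Gins2 was higher in all 10 lines, from 67.3 (63.0 to 98.9) to 80.8 CPM (66.9 to 107.1), a change of 0.23 ± 0.08 (adjusted p = 0.0216). Gins3 was lower in 8 of 10 lines, from 18.7 (13.7 to 20.6) to 14.98 CPM (10.02 to 18.4), a change of -0.27 ± 0.09 (adjusted p = 0.0282). Gins1 passed only with the block (0.29 ± 0.07), and Gins4 in neither fit, so the 4 subunits of this complex did not share a direction. The Gins2 call was lost without any one of lines E1.3, E2.1, E2.2, E2.7, E2.8 and E2.9 (0.19 to 0.22 log2, adjusted p = 0.0503 to 0.115), and the Gins3 call without E2.1, E2.2 or E2.9 (-0.28 to -0.23, adjusted p = 0.0511 to 0.093). Mcm10, an activation factor, had medians of 63.4 (55.5 to 69.9) and 69.7 CPM (59.0 to 83.5) and passed only with the block (0.17 ± 0.05, adjusted p = 0.0129).

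At the fork, Rfc4 of the clamp loader rose in all 10 lines, from a median of 58.8 CPM (48.4 to 72.3) to 73.0 CPM (53.7 to 131.3, the highest in E1.4), by 0.36 ± 0.10 log2 (adjusted p = 0.00478). Prim2, the large primase subunit, went from 53.0 (47.2 to 56.9) to 58.0 CPM (52.0 to 67.5), by 0.15 ± 0.05 (adjusted p = 0.0361). Its call was lost without any one of lines E1.3, E1.5, E2.1, E2.2, E2.5, E2.7 and E2.9 (0.11 to 0.16, adjusted p = 0.0598 to 0.203). Pcna was higher in all 10 lines but passed only with the block (0.20 ± 0.05, adjusted p = 0.00404). Its levels were 354.6 CPM untreated (278.6 to 477.0) and 397.9 with AO (288.2 to 667.5), and the highest value in both, 477.0 and 667.5, was that of E1.4. Pola1 and Pold3, polymerase subunits, and Rpa2, a single-strand binding subunit, passed upward only with the block, and Pold1, the catalytic subunit of polymerase delta, downward. Pola2, Prim1, Pole, Rfc2, Rfc3, Rfc5, Rpa1, Fen1, Lig1, Tyms and Uhrf1 did not pass in either fit, with differences between -0.11 (Uhrf1) and 0.18 (Rfc3).

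Both subunits of ribonucleotide reductase, which makes deoxynucleotides, and both cyclin E genes fell with AO, while Tyms, thymidylate synthase, did not pass (0.05 ± 0.11 log2, adjusted p = 0.793). Rrm2, the regulated small subunit of ribonucleotide reductase, was lower with AO in all 10 lines. In the WT lines (E1.5, E2.1, E2.7) it went from 199.2, 213.4 and 169.9 to 162.6, 176.8 and 146.4 CPM. In het cells (E1.3, E2.5, E2.6, E2.8) the pairs were 226.8 and 164.7, 207.8 and 164.2, 324.6 and 216.7, and 185.9 and 146.3 CPM. In the hom lines (E1.4, E2.2, E2.9) they were 221.4 and 160.1, 190.2 and 147.6, and 182.2 and 158.0 CPM. The change was -0.35 ± 0.10 log2 (adjusted p = 0.00764), and -0.35 ± 0.04 with the line as a block (adjusted p = 5.57e-07), since lines differ in level more than in response. Rrm1, the large subunit, was lower in all 10 lines, from 471.4 (404.8 to 523.1) to 413.4 CPM (369.1 to 475.8), by -0.18 ± 0.07 (adjusted p = 0.0333). The Rrm1 call was lost with RLE size factors (0.0534) and without any one of lines E2.1, E2.2, E2.6, E2.7 and E2.8 (adjusted p = 0.0523 to 0.076), and held with the block (0.00137).

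Ccne1 and Ccne2 encode cyclins E1 and E2, the activators of Cdk2 at the start of S phase. Ccne2 was lower with AO in all 10 lines, from a median of 68.2 CPM (55.3 to 74.5) to 52.7 CPM (44.1 to 59.8), by -0.34 ± 0.06 log2 (adjusted p = 9.82e-05). Ccne1 was lower in all 10 lines by -0.67 ± 0.13 (adjusted p = 0.000246), and in each line its AO level was also below its poly(I:C) level. Within WT, het and hom cells the Ccne1 change was -0.60 ± 0.23, -0.66 ± 0.20 and -0.73 ± 0.24, past the threshold in het and hom cells. Of these, the het call was lost without E1.3 or E2.8 (adjusted p = 0.146 and 0.133) and the hom call without any hom line (0.0987 to 0.193). Ccne2 passed in WT (-0.35 ± 0.11, adjusted p = 0.0494) and het cells (-0.38 ± 0.10, adjusted p = 0.00956). The WT call was lost without any WT line (0.132 to 0.368), and the het call without E2.6 (0.0637) or E2.8 (0.0695).

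**Figure D1:**
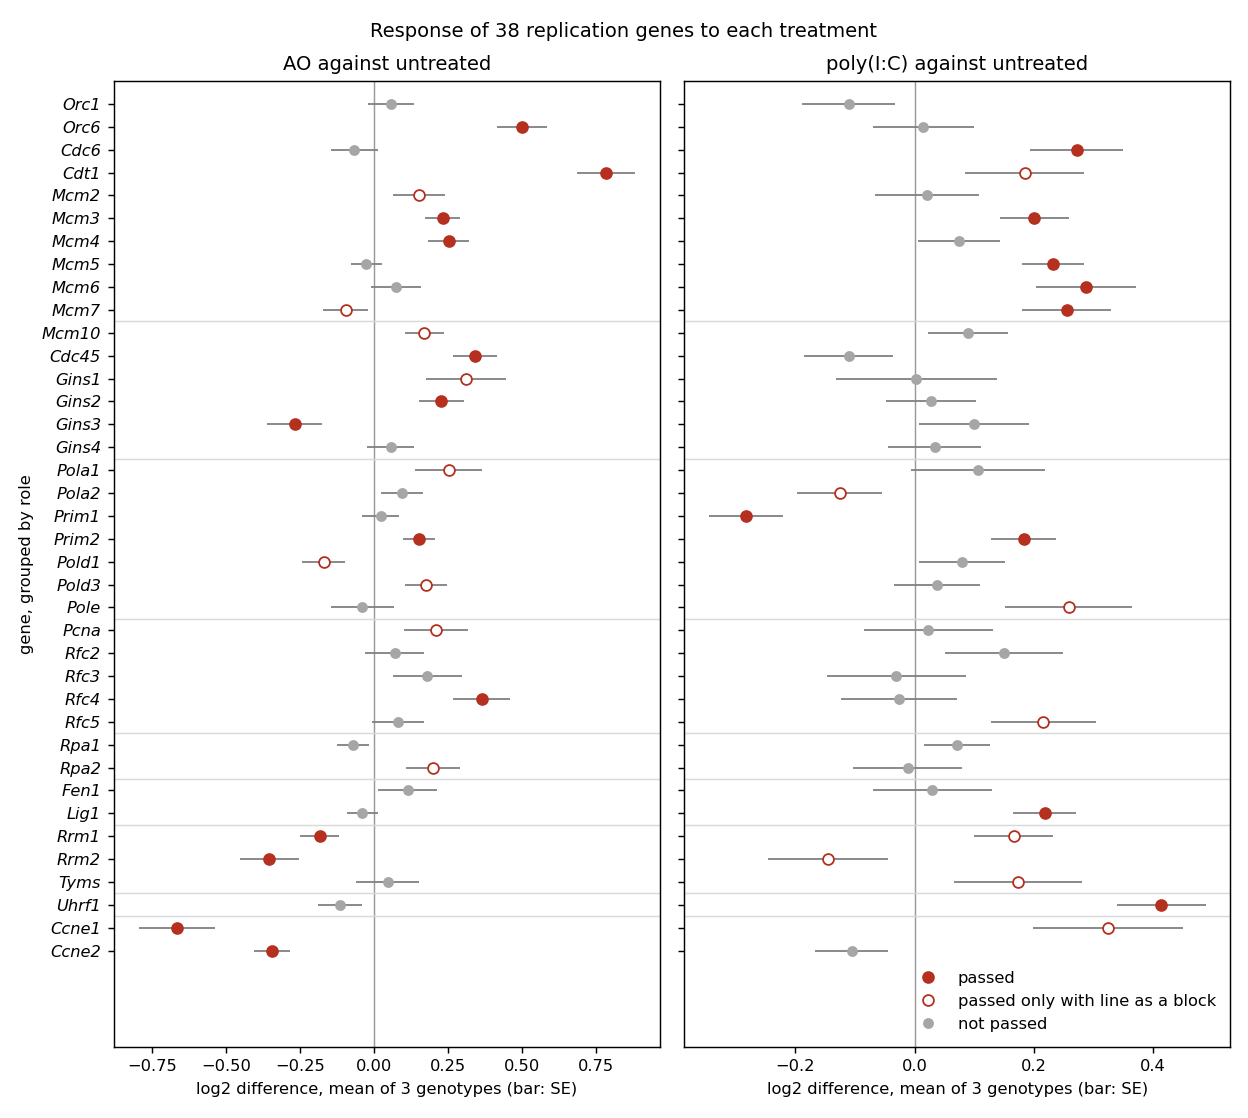
Log2 difference from untreated cells, averaged over the 3 genotypes (horizontal axis; bars are SE), for each of the 38 genes (vertical axis, grouped by role with lines between roles), for AO at left and poly(I:C) at right on different scales. Filled red points passed without a block, open red points passed only with the line as a block and grey points passed in neither; AO spreads the genes from -0.67 (Ccne1) to 0.78 (Cdt1), and poly(I:C) from -0.28 (Prim1) to 0.41 (Uhrf1).

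Within single genotypes AO moved fewer genes past the threshold. In WT cells 1 rose (Cdt1) and 1 fell (Ccne2), where 7.65% of all genes passed, 4.23% higher and 3.42% lower. In het cells 1 rose (Cdt1) and 2 fell (Ccne1 and Ccne2), where 11.1% passed, 6.17% higher and 4.92% lower. In hom cells 4 rose (Cdt1, Orc6, Pold3 and Rfc4) and 1 fell (Ccne1), where 13% passed, 7.36% higher and 5.69% lower. With the block 8, 11 and 12 genes passed, against 22.8%, 27.4% and 29.4% of all genes. The hom calls of Pold3 (0.43 ± 0.13) and Rfc4 (0.58 ± 0.17) were lost without line E1.4, at 0.27 (adjusted p = 0.258) and 0.36 (0.145). They were also lost without E2.9 (0.0756 and 0.121), and that of Pold3 without E2.2 (0.118). In a fit on the hom untreated and AO libraries alone none of the 38 genes passed in hom cells (Cdt1 0.83, adjusted p = 0.213; Orc6 0.75, 0.271).

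Poly(I:C) gave smaller changes, and nearly all of those that passed were upward. Averaged over genotypes, 8 genes rose and 1 fell, 9 of 38, where 21.7% of all genes passed (9.91% higher and 11.8% lower). The genes that rose were Uhrf1, the licensing genes Cdc6, Mcm3, Mcm5, Mcm6 and Mcm7, Lig1 and Prim2; Prim1 fell. The median log2 difference of the 38 genes was 0.08, against a median of 0.00 to 2 decimals for all genes (-0.00095). With the line as a block 14 rose and 3 fell, where 39.3% of all genes passed (19.7% higher and 19.6% lower). The AO and poly(I:C) comparisons share their untreated libraries.

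Uhrf1, which brings the maintenance methyltransferase to newly copied DNA, rose most. In the WT lines (E1.5, E2.1, E2.7) it went from 250.2, 225.3 and 228.7 to 344.0, 307.6 and 294.1 CPM. In het cells (E1.3, E2.5, E2.6, E2.8) it went from 251.0, 236.6, 201.5 and 251.3 to 354.0, 271.6, 217.6 and 317.5 CPM, and in the hom lines (E1.4, E2.2, E2.9) from 227.8, 242.4 and 241.0 to 340.7, 348.4 and 324.4 CPM. All 10 lines were higher, with the smallest step in E2.6, and WT and hom levels did not overlap with their untreated ones. The change was 0.41 ± 0.07 log2 (adjusted p = 0.00031). AO levels of Uhrf1, 175.1 to 237.0 CPM, were below the poly(I:C) level in every line.

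Of the MCM subunits, Mcm5 was higher in all 10 lines, from a median of 211.1 CPM (194.7 to 229.4) to 254.7 CPM (207.2 to 266.9), by 0.23 ± 0.05 log2 (adjusted p = 0.00244). Mcm6 was higher in all 10, from 365.4 (272.8 to 382.9) to 451.5 CPM (307.9 to 533.2), by 0.29 ± 0.08 (adjusted p = 0.0159). Its lowest value in both was that of line E2.6, and its highest with poly(I:C) that of het line E2.5. Mcm7 was higher in all 10, from 304.8 (224.3 to 351.5) to 356.9 CPM (278.3 to 397.0), by 0.26 ± 0.07 (adjusted p = 0.0158). Mcm3 was higher in all 10, from 257.4 to 286.6 CPM (248.2 to 318.2), by 0.20 ± 0.06 (adjusted p = 0.0144). Mcm2 and Mcm4 differed by 0.02 ± 0.09 and 0.07 ± 0.07 and passed in neither fit. Thus Mcm5, Mcm6 and Mcm7 passed upward with poly(I:C) and not with AO, Mcm4 the reverse, and Mcm3 passed upward with both. The difference between the 2 responses was not tested.

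Cdc6 was higher in 9 of 10 lines, from a median of 63.1 CPM (52.7 to 66.4) to 76.9 CPM (55.5 to 87.5), by 0.27 ± 0.08 log2 (adjusted p = 0.014). Lig1, the ligase that joins Okazaki fragments, was higher in 9 of 10, from 136.1 (126.8 to 144.4) to 159.5 CPM (144.2 to 170.4), by 0.22 ± 0.05 (adjusted p = 0.0045). The primase subunits moved apart: Prim1, the catalytic subunit, was lower in all 10 lines, from 84.5 (75.8 to 99.3) to 70.4 CPM (58.9 to 79.3), by -0.28 ± 0.06 (adjusted p = 0.00207), and Prim2 was higher in 9 of 10, from 53.0 to 60.0 CPM (52.3 to 66.0), by 0.18 ± 0.05 (adjusted p = 0.0184). The calls of Uhrf1, Mcm5, Lig1 and Prim1 held when any one line was left out. Those of Cdc6, Mcm3, Mcm6, Mcm7 and Prim2 were each lost without WT line E2.1 (adjusted p = 0.051 to 0.0808). Those of Cdc6, Mcm6, Mcm7 and Prim2 were lost without E2.9 (0.0539 to 0.108), of Mcm3 and Mcm7 without E2.2 (0.0514 and 0.069), of Mcm3 and Mcm6 without E2.7 (0.068 and 0.0519) and of Prim2 without E1.5 (0.0826). The count was 4 without E2.1, 5 without E2.9 and 4 with no filter on low counts, where the same 5 calls were lost (0.0579 to 0.147).

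Other genes passed with poly(I:C) only in the fit with the line as a block. Cdt1, Pole, Rfc5, Rrm1, Tyms and Ccne1 were higher, by 0.17 (Rrm1) to 0.32 (Ccne1) log2, and Pola2 and Rrm2 were lower. Rrm1 was higher in all 10 lines while Rrm2 was lower in 9 of 10 (-0.14 ± 0.04, adjusted p = 0.00874), so the subunits of ribonucleotide reductase, which both fell with AO, moved apart here. In single genotypes no gene of the 38 passed in edgeR, where 3.17% (WT), 4.63% (het) and 1.26% (hom) of all genes did. At an unadjusted p under 0.05 there were 8, 8 and 6 genes, against 16.7%, 17.7% and 11.9% of all genes. DESeq2 called 1, 2 and 1, against 5.83%, 6.67% and 2.62%. With the block 6 (WT), 8 (het) and 4 (hom) passed, against 15.5%, 17.7% and 9.53% of all genes, and Uhrf1 and Mcm5 were among them in each genotype.

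All 7 genes that rose with poly(I:C) and have a promoter window (Cdc6, Lig1, Mcm3, Mcm5, Mcm6, Mcm7 and Uhrf1) held an E2F-type match. Prim2 has no window here. Of the 22 genes with a window that did not pass, 7 held one, and Prim1 did not. Over all tested genes with a window, the share with a match was 6.61% of the 999 that rose, 4.92% of the 1260 that fell and 4.49% of the 7820 that did not pass. With AO, Cdt1 and Mcm3 held a match and Cdc45, Orc6 and Rfc4 did not. Of the genes that fell with AO, Gins3 held one and Ccne1, Rrm1 and Rrm2 did not, and of the 21 with a window that did not pass, 11 held one. Over all tested genes with a window the share was 5.46% of the 1794 that rose with AO, 5.04% of the 1708 that fell and 4.49% of the 6577 that did not pass. These groups were set by the measured changes, so the counts are descriptions only.

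**Figure D2:**
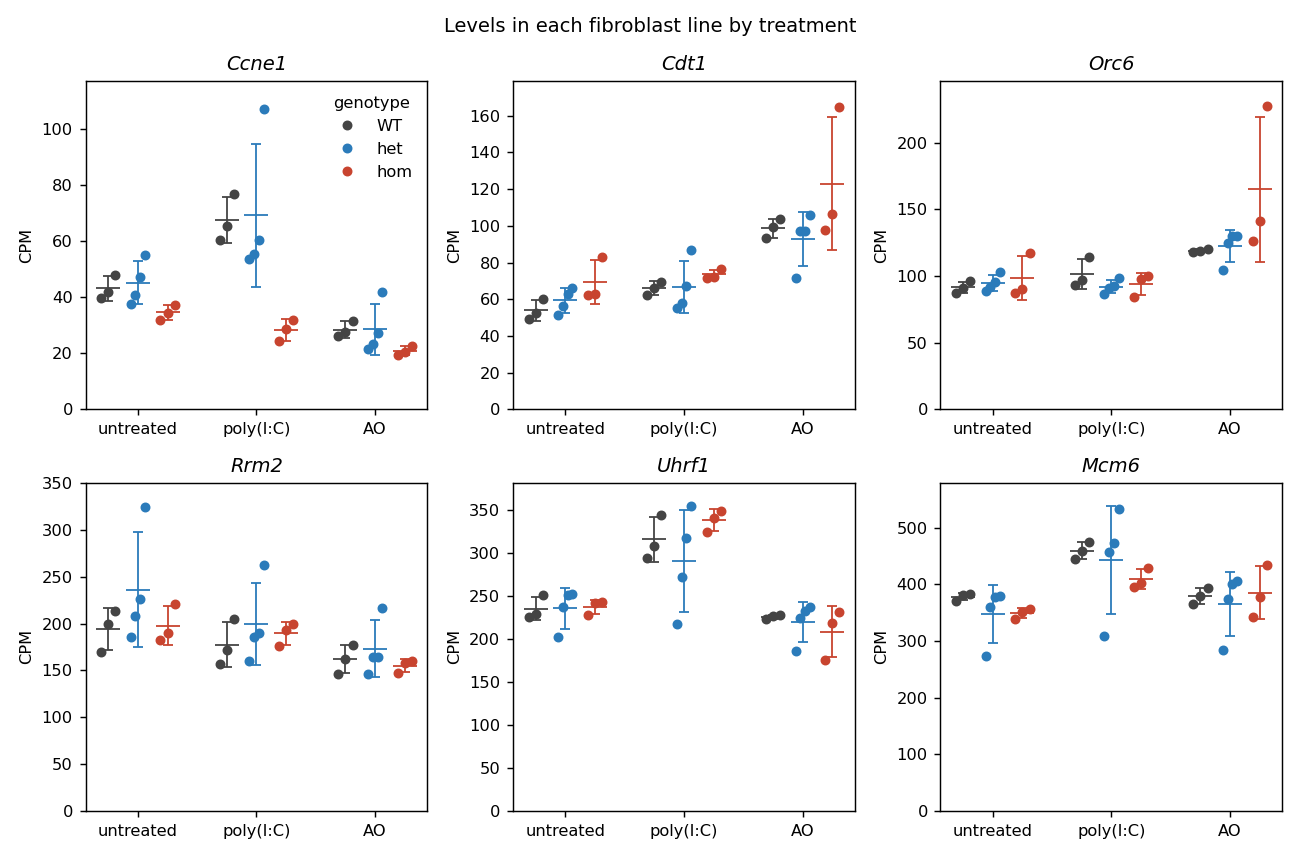
CPM (vertical axes, from 0) of 6 genes in each line (points), with the mean and SD of each genotype (bars; n = 3 WT, 4 het and 3 hom lines), by treatment (horizontal axes). Ccne1 with poly(I:C) lies at 24.4 to 31.9 CPM in hom lines and at 60.6 to 76.8 CPM in WT lines, and Cdt1 and Orc6 with AO are highest in hom line E1.4, at 164.6 and 227.1 CPM.

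Ccne1 was the gene of the 38 that differed between genotypes. With poly(I:C), the WT lines (E1.5, E2.1, E2.7) had 65.4, 76.8 and 60.6 CPM, and the hom lines (E1.4, E2.2, E2.9) had 24.4, 31.9 and 28.7 CPM. The groups did not overlap, and the WT mean of 67.6 ± 8.3 (SD, n = 3) stood against a hom mean of 28.3 ± 3.8 (SD, n = 3). Het cells (E1.3, E2.5, E2.6, E2.8) had 55.5, 107.3, 53.7 and 60.5 CPM, all above the hom lines. The difference between hom and WT was -1.26 ± 0.23 log2 (adjusted p = 0.0253 in edgeR), 1 of 38 genes where 0.187% of all genes passed, all of those lower in hom cells. It also passed in DESeq2 (adjusted p = 0.000194), in limma with the line as a random block (0.0371) and when only these WT and hom libraries entered the fit (0.0069). The call was lost when any one of the 6 WT and hom lines was left out, with values of -1.34 to -1.15 and adjusted p-values of 0.107 to 0.28; without E1.4 they were -1.16 and 0.28.

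In untreated cells Ccne1 was at 48.1, 39.6 and 41.7 CPM in WT lines and 37.3, 31.99 and 34.4 CPM in hom lines, and with AO at 31.7, 26.1 and 27.7 against 20.4, 22.6 and 19.5 CPM. Hom lines were below WT lines without overlap in these treatments too, but the differences of -0.32 ± 0.23 and -0.45 ± 0.24 log2 did not pass (adjusted p = 0.976 and 0.489). The het lines had 47.1, 40.7, 55.2 and 37.8 CPM untreated. From untreated to poly(I:C) the gene went up in 3 of 3 WT lines (0.65 ± 0.23 log2, adjusted p = 0.123) and in 3 of 4 het lines (0.62 ± 0.20, 0.0741), and was lower in 3 of 3 hom lines (-0.29 ± 0.23, 0.735), though in E2.2 the levels were nearly equal, at 31.99 and 31.9 CPM. With the block the adjusted p-values were 0.0508, 0.0307 and 0.458. The difference of the hom from the WT response was -0.94 ± 0.32 log2 at an unadjusted p of 0.00784, and did not pass over all genes (adjusted p = 1, and 0.814 with the block). With poly(I:C) the summed levels of hom and WT lines overlapped for each of the 9 marker lists. Untreated, they did not overlap for chondrocyte markers (132.7 to 171.8 CPM in hom and 58.3 to 124.5 CPM in WT lines), endothelial markers (4.24 to 5.86 and 6.76 to 12.6 CPM) and erythroid markers, which were near 0. With AO they did not overlap for macrophage markers (3.79 to 149.2 and 2.22 to 2.49 CPM). The part of these markers in the Ccne1 values was not tested.

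Apart from Ccne1, no gene of the 38 passed between genotypes. In hom against WT untreated cells edgeR called 0 of 38, where 0.015% of all genes passed, and with AO 0, where 0% did. At an unadjusted p under 0.05 there were 1 and 6 genes, against 3.09% and 10.8% of all genes, and DESeq2 called 0 in each, against 0.299% and 0.262%. Het against WT gave 0 genes in each treatment, with 0% of all genes passing. It also gave 0 at an unadjusted p under 0.05, where 0.673% (untreated), 1.03% (poly(I:C)) and 0.479% (AO) of all genes were, and 0 in DESeq2, with 0% of all genes. The tests of whether a response differed from that in WT gave 0 of 38 in each of 4 comparisons, with 0% of all genes passing. At an unadjusted p under 0.05 they gave 1 gene for AO in hom cells, against 0.95% of all genes, 1 for poly(I:C) in hom cells (Ccne1), against 1.17%, and 0 in het cells, against 0.232% and 0.546%. DESeq2 called 0 of 38, with 0% of all genes.

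Counted by overlap, 3 genes were lower in every hom than every WT line without treatment (Mcm6, Pold3 and Ccne1), where 4.78% of all genes were, and 5 were higher (Cdt1, Cdc45, Gins3, Pola2 and Rpa2), against 4.6%. With poly(I:C) 4 were lower (Mcm6, Pold3, Tyms and Ccne1), against 5.46%, and 3 were higher (Cdt1, Mcm3 and Fen1), against 5.24%. With AO 1 was lower (Ccne1), against 5.19%, and 5 were higher (Orc6, Cdc45, Prim1, Rfc5 and Rpa2), against 3.93%. Between het and WT lines 0 genes were without overlap, where 0.875% to 1.79% of all genes were. Mcm6 was at 370.5 to 382.9 CPM in WT and 339.6 to 356.3 CPM in hom lines untreated, and at 445.1 to 475.1 against 395.8 to 429.4 CPM with poly(I:C).

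Lines within each genotype were also compared, with the libraries of a line as its replicates. Counts from this test cannot be set against those between genotypes. Within genotypes 24 of the 38 genes differed between lines (edgeR F test, adjusted p under 0.05), where 54.3% of all genes did. They included 9 of the 10 licensing genes, all 3 of deoxynucleotide supply, Pcna and Uhrf1, and neither cyclin E gene. Het line E2.6 was the lowest of the 10 lines in all 3 treatments for 17 of the 38 genes, where 5.43% of all genes were lowest in this line. These were Cdc6, all 6 MCM helicase subunits (Mcm2 to Mcm7), Cdc45, Gins1, Gins4, Prim1, Pcna, Rfc3, Rfc4, Rfc5, Rpa2 and Tyms. Rrm2 was the highest of the 10 lines in E2.6 in all 3 treatments, at 324.6, 262.7 and 216.7 CPM against at most 226.8, 204.4 and 176.8 CPM elsewhere, where 6.51% of all genes were highest in this line.

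Averaged over treatments, E2.6 was below the mean of the 10 lines by 0.52 log2 for Rfc3, 0.50 for Pcna, 0.49 for Tyms and 0.47 for Mcm2, and above it by 0.51 for Rrm2 and 0.40 for Ccne1. Its Cdkn1a level, the p21 inhibitor of cyclin-dependent kinases, was 191.5 CPM untreated, 224.8 with poly(I:C) and 200.9 with AO, while the other lines had 37.8 to 96.4 CPM over the treatments. Its Ccnd1 level was 206.8 to 368.8 CPM against 19.2 to 222.5 CPM elsewhere. Endothelial markers were higher in E2.6 than in any other line, at 22.6 CPM untreated, 27.2 with poly(I:C) and 35.2 with AO, against at most 12.6, 14.7 and 16.3 CPM in WT lines. Chondrocyte markers were highest there untreated and with AO (233.0 and 189.9 CPM), and smooth muscle markers were the highest of the het lines in each treatment (3552 to 4038 CPM). Macrophage markers were above the WT lines, as was the skeletal muscle sum, which with poly(I:C) and with AO was Acta1 alone. The part of these markers in the levels of E2.6 was not tested. Without line E2.6 the count of genes that differed between lines was 12, and the share of all genes in that fit is not given here.

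In hom line E1.4, Gins1 and Fen1, the flap nuclease of Okazaki fragments, were the highest of the 10 lines there in all 3 treatments, at 36.5, 31.9 and 64.0 CPM and at 105.2, 91.2 and 144.5 CPM. Under this rule, which asks for all 3 treatments, these 2 of 38 genes are a share close to that of all genes, of which 4.82% were highest in this line. The AO library taken alone stood apart for more of the 38 genes. Pola1 was lowest there untreated and with AO, at 65.2 and 60.5 CPM against at least 86.7 and 94.6 CPM elsewhere, but not with poly(I:C), at 108.0 CPM. Pole, the catalytic subunit of polymerase epsilon, was 0.51 log2 below the mean of the lines when averaged over treatments. It was lowest in E1.4 untreated and with AO, at 69.4 and 63.8 CPM. With poly(I:C) it was at 136.0 CPM there, within the 117.1 to 152.6 CPM of the 10 lines. With AO this line had the highest Pcna (667.5 CPM), Orc6, Cdt1, Rfc4 and Gins2 levels. It was also highest with AO for Mcm6, Cdc45, Gins3, Gins4, Prim1, Pold1, Pold3, Rfc2, Rfc3, Rfc5, Rpa1, Rpa2, Lig1 and Tyms. Besides Pola1 and Pole, Uhrf1 was lowest there with AO. Smooth muscle marker levels were 3822 CPM there with AO, the highest of the 10 lines, and their part in these levels was not tested. The share of all genes highest or lowest there with AO alone is not given here. Without both E1.4 and E2.6, a choice made after the data were seen, 21 genes passed with AO (15 higher) and 15 with poly(I:C) (14 higher). In that setting 10 differed between lines. The shares of all genes that passed in these fits are not given here, so the counts show no particular response of the 38 genes.

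**Figure D3:**
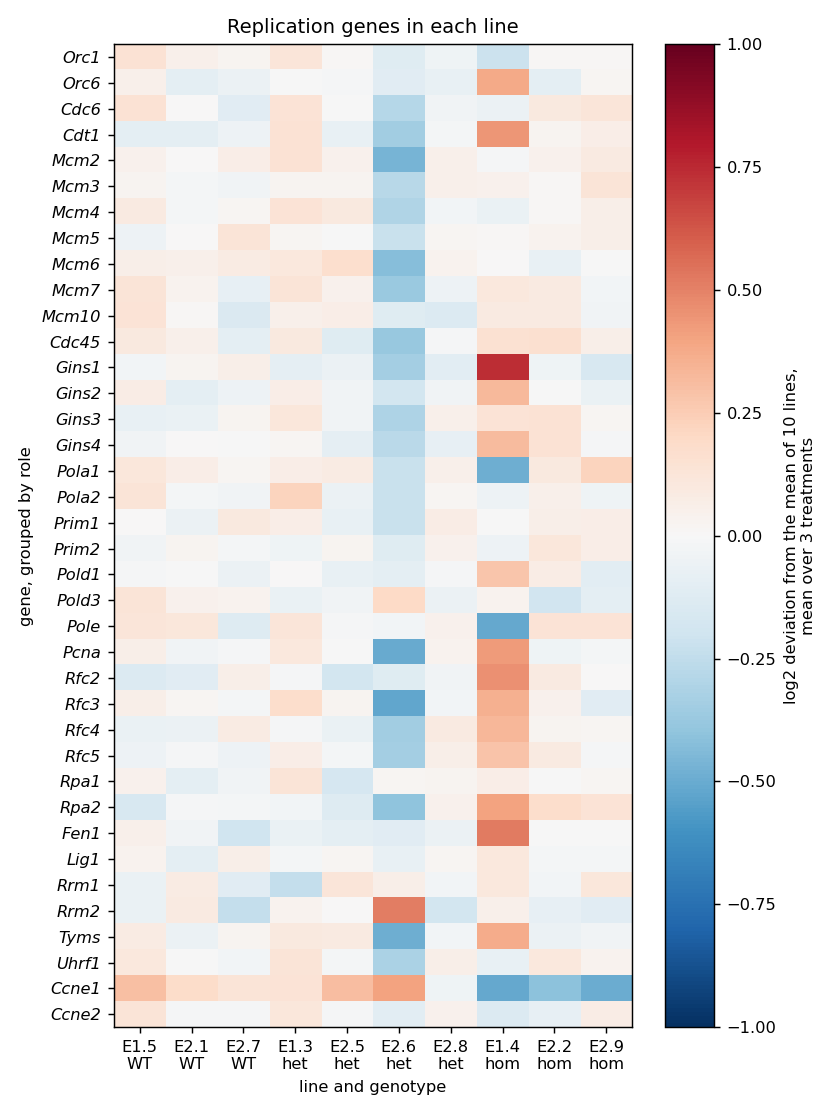
Mean log2 deviation of each gene (rows, grouped by role) in each line (columns, with genotype) from the mean of the 10 lines in the same treatment, averaged over the 3 treatments (colour scale from -1 to 1). Line E2.6 is blue for most rows, down to -0.52 (Rfc3), and red for Rrm2 (0.51), and the hom lines are blue for Ccne1.

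Density was compared in WT line E1.5, where 9 libraries (3 treatments at high, low and unlabelled density) allowed a test between high and low with treatment as a term. The p-values measure the spread between libraries of this line only. CPM are scaled here over the 9 libraries. At high density 5 of the 38 genes were higher (Mcm6, Pcna, Cdt1, Ccne1 and Mcm2) and 2 lower (Rrm1 and Rrm2). Of the 12229 genes tested, 17.8% passed (9.06% higher and 8.74% lower), so the share that passed was close to that of all genes. Depth also differed, with the high-density libraries the deepest and the low-density ones among the shallow, and its part was not tested.

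Rrm1 had 414.8, 434.7 and 356.6 CPM at high density (untreated, poly(I:C) and AO) and 495.4, 592.5 and 465.6 CPM at low density. It was lower at high density in each treatment, by -0.36 ± 0.05 log2 (adjusted p = 0.000322). Rrm2 had 163.2, 152.3 and 142.5 against 242.7, 211.2 and 166.0 CPM, a difference of -0.43 ± 0.07 (adjusted p = 0.000606), and the unlabelled library lay between in each treatment. Mcm6 had 401.3, 519.1 and 408.5 against 323.9, 398.3 and 348.4 CPM, a difference of 0.31 ± 0.05 (adjusted p = 0.00108), again with the unlabelled library between. Pcna had 388.0, 432.6 and 433.6 against 347.4, 347.7 and 380.7 CPM (0.22 ± 0.05, adjusted p = 0.00916). Cdt1 had 63.6, 68.7 and 113.3 against 51.9, 62.3 and 77.8 CPM (0.34 ± 0.08, adjusted p = 0.0124). Mcm2 differed by 0.20 ± 0.06 (adjusted p = 0.0254). When the libraries of any one treatment were left out the count was 4; Rrm1, Rrm2 and Mcm6 passed each time.

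Ccne1 at high against low density had 47.2 and 44.5 CPM untreated, 84.5 and 44.7 CPM with poly(I:C), and 32.5 and 22.6 CPM with AO, and the unlabelled library had 47.9, 64.8 and 31.3 CPM. The overall difference was 0.50 ± 0.13 log2 (adjusted p = 0.0205), and 0.27 (adjusted p = 0.174) without the poly(I:C) libraries. The call was also lost without the AO libraries (0.50, adjusted p = 0.116). The change from untreated to poly(I:C) was 0.01 log2 at low and 0.84 at high density, with 1 library each and so no test. The density of the 30 libraries of the genotype comparison is not given in the labels, so its part in the Ccne1 values of the hom lines was not tested. The treatment responses kept their direction in these separate libraries: all 13 genes that passed with AO and all 9 that passed with poly(I:C) moved the same way at low and at high density. Of the 22 that passed with AO in the blocked fit, 21 did so at low density, Rpa2 being the exception, and 22 at high density. Of the 17 with poly(I:C), 17 did so at each. Line E1.5 was also among the lines of the fits that set these genes, so it is not an independent line. The share of all passing genes that kept their direction is not given here.

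**Figure D4:**
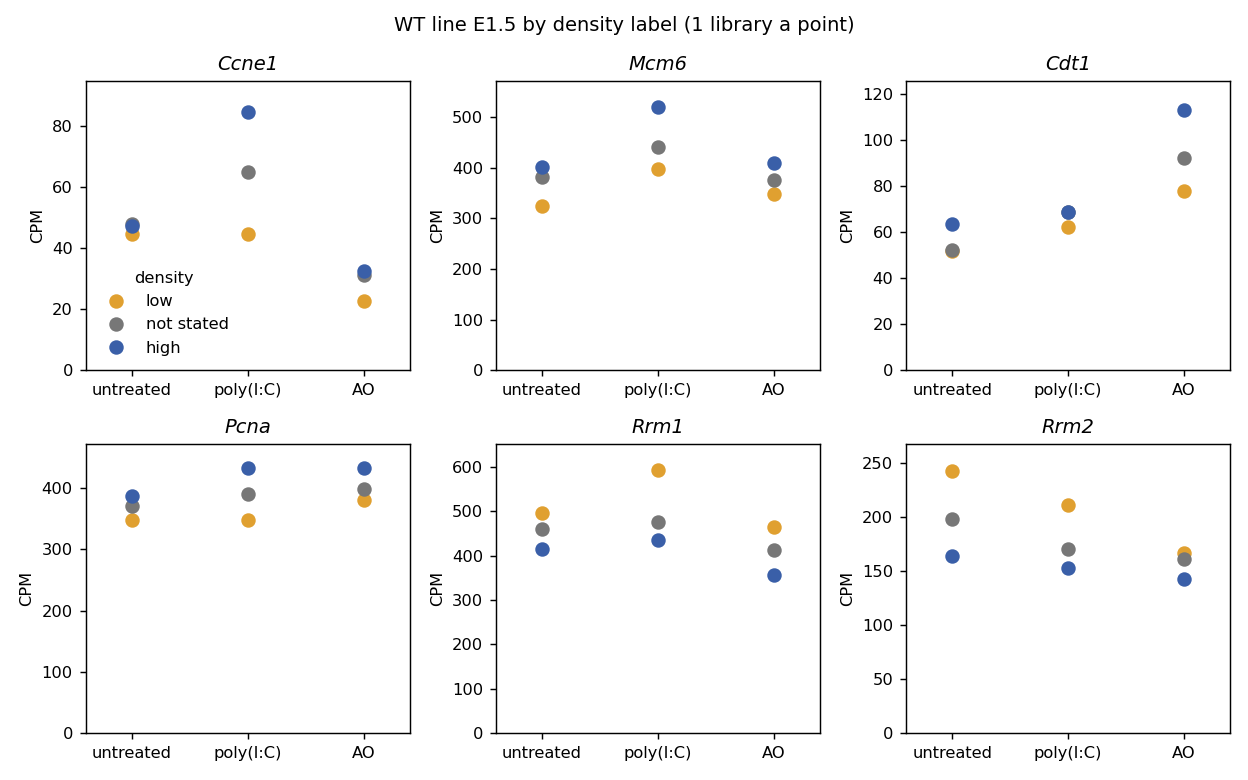
CPM (vertical axes, from 0) of 6 genes in single libraries of WT line E1.5 at low, unlabelled and high density (colours), by treatment (horizontal axes). Rrm1 and Rrm2 are lowest at high density in each treatment, and Ccne1 with poly(I:C) goes from 44.7 CPM at low to 84.5 CPM at high density.

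Related genes outside the 38 were counted for comparison. With AO, 24 of 30 genes of G2 and mitosis fell and the other 6 did not pass, with a median of -0.42 log2, where 17% of all genes rose and 16.7% fell. Kif2c, a mitotic kinesin, changed by -0.88 ± 0.07, Plk1 by -0.83 ± 0.07 and Ccna2, cyclin A, by -0.52 ± 0.04. Of 50 other replication and S-phase genes 14 rose and 8 fell, with a median of 0.05. Recql4, a helicase of replication initiation, rose by 0.84 ± 0.11, while Tk1, thymidine kinase, fell by 0.59 ± 0.08 on the log2 scale, as did Chtf18 by 0.60 ± 0.07 and Asf1b, a histone chaperone, by 0.55 ± 0.07. Of 28 regulators of S-phase entry 5 rose and 8 fell. Myc rose by 1.28 ± 0.11, E2f1 by 0.30 ± 0.09, and Ccnd1, cyclin D1, fell by 0.89 ± 0.29, while Cdkn2c, an inhibitor of its kinases, fell by 1.16 ± 0.18. Cdkn1a was higher in all 10 lines but passed only with the block (0.59 ± 0.08, adjusted p = 2.14e-06).

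With poly(I:C), where 9.91% of all genes rose and 11.8% fell, 5 of 30 genes of G2 and mitosis fell and the other 25 did not pass. Of the 5, Bub1b fell by 0.31 ± 0.06 and Ndc80 fell by 0.38 ± 0.07 on the log2 scale. With the block, where 19.7% of all genes were higher and 19.6% lower, 2 of these 30 genes rose and 9 fell, 4 of the 50 other replication genes rose and 15 fell, and 7 of the 28 regulators rose and 11 fell. Without the block, 2 of the 50 other replication genes rose and 10 fell, with a median of -0.07, among them Cdk2, the partner of cyclin E, by 0.59 ± 0.07 and Dna2 by 0.71 ± 0.11. Of the regulators 2 rose and 5 fell. Myc rose by 0.80 ± 0.11 and Rbl2, the pocket protein p130, fell by 0.92 ± 0.12, while E2f1 differed by 0.06 ± 0.09 and did not pass. Ccnd1 and Cdkn1a passed upward only with the block (0.44 and 0.46, adjusted p = 4.03e-05 and 9.78e-05). At high density, where 9.06% of all genes were higher and 8.74% lower, 15 of the 30 genes of G2 and mitosis were lower and the other 15 did not pass, with a median of -0.21, as Prc1 (-0.38 ± 0.05). Of the 50 other replication genes 3 were higher and 0 lower. Cdkn1a, Cdkn2a and Cdkn2b, among the 28 regulators, were higher at high density, by 0.43 ± 0.09, 0.40 ± 0.06 and 0.49 ± 0.09.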

How the data were processed

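Libraries were made with the TruSeq Stranded mRNA kit from RNeasy Plus RNA, per the labels' protocols. The authors deposited expected counts per gene for each of 36 libraries. STAR, RSEM and mm10 are named in the submitters' processing notes; no source used here gives their versions, the annotation or the strand setting. Between 6.11% and 13.4% of values were not whole, so the deposited expected counts were rounded. Of 49585 genes, 49326 matched GENCODE vM21, which gave symbols and transcript lengths.

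Counts were fitted in R 4.3.3 with edgeR 4.0.16 (robust quasi-likelihood F test, TMM, filterByExpr with minimum count 10 and minimum total 15). The 30 libraries without a density label entered 1 fit with 9 group terms. P-values were adjusted by Benjamini-Hochberg over 13364 genes, and a gene passed at an adjusted p under 0.05. Tests are two-sided. Density was tested in 9 libraries of line E1.5 with treatment as a term (12229 genes), and lines within genotypes by an F test. CPM of single genes are TMM-scaled counts per 1000000, and summed marker CPM are taken of the unscaled library total. Each line was given all treatments, and deviations from group means of libraries of the same line correlated at 0.332 to 0.741 over 30 pairs, so the replicate block (the line as a term) is given beside results it changes. Libraries of 1 group differed by more than counting noise (chi-square per degree of freedom 5.61 to 65.8).

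Alternatives were RLE size factors, no low-count filter, DESeq2 1.42.0, the compared groups alone, the block (limma 3.58.1 between genotypes), the first part of the line name as a covariate, and each line left out. The fits were also run on simulated data with planted changes and without lines that stand apart. That outcome is not given here, and the calls do not rest on it. All 38 genes were described by role. Full values were given for genes that passed over the genotypes (up to 8 a direction) and for Mcm2, Mcm6, Pcna, Cdc6, Ccne1, Ccne2, Rrm2, Uhrf1 and Mcm10, and companions were named by smallest p. The members and lists were chosen with earlier results of these data known.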

Additional observations from a re-analysis of the deposited data

Results flagged for a closer look

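In 6 of the 69 groups of 4 het lines looked at (23 genes in 3 treatments), 1 line lay far from the other 3, and 5 of the 6 were line E2.6. Chance gives about 1 such group in 20. Mcm2 with AO was at 196.8 CPM in E2.6 and 307.4 to 310.4 CPM in the other het lines. Mcm3 was at 220.0 CPM in E2.6 without treatment, against 257.4 to 260.4 CPM, and at 218.6 CPM with AO, against 299.4 to 304.0 CPM. With poly(I:C), Gins3 was at 14.6 CPM in E2.6, against 19.6 to 20.6 CPM, and Pcna at 231.2 CPM, against 381.4 to 404.4 CPM. The exception was Ccne1 with poly(I:C), at 107.3 CPM in E2.5 and 53.7 to 60.5 CPM in the other het lines.

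Of 152 pairs of genotype responses, 2 had every line of one genotype moving one way and every line of the other the opposite way. The share over all genes was not counted, so these 2 pairs are not shown to be more than chance gives. Mcm2 with poly(I:C) was higher in all WT and lower in all het lines, a difference of -0.13 ± 0.21 log2 (SE, edgeR adjusted p = 1). Ccne1 with poly(I:C) was higher in all WT and lower in all hom lines, though by less than 0.01 log2 in E2.2 (31.99 and 31.9 CPM), a difference of -0.94 ± 0.32 log2 (unadjusted p = 0.00784, edgeR adjusted p = 1).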

How the results depend on the processing

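No result changed direction under any alternative run. Counts of the 38 genes that passed moved by over 1.5 times as follows. With RLE size factors AO in WT gave 1 gene. With no filter on low counts AO gave 1 in WT and 2 in hom cells, and poly(I:C) over the genotypes gave 4. With the replicate block AO gave 8 in WT, 11 in het, 12 in hom and 22 over the genotypes, and poly(I:C) gave 6, 8, 4 and 17. DESeq2 gave 7 for AO in het cells, and for poly(I:C) 1 in WT, 2 in het and 1 in hom cells. The compared groups alone gave 7 for AO in WT and 0 in hom cells, and 3 for poly(I:C) in WT. Between densities the count was 4 when untreated, 4 when poly(I:C) and 4 when AO libraries were left out. In alternatives chosen after seeing the data, leaving out lines E1.4 and E2.6 gave 21 genes for AO (24 with the block), 15 for poly(I:C) (21 with the block) and 10 that differed between lines, and leaving out E2.6 and the AO library of E1.4 gave 9. The cause was not tested. Where no share of all genes is given, here or below, a count is not a result about the 38 genes.

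Leaving out 1 line at a time, the counts were 0 to 1 (AO, WT), 0 to 6 (AO, het), 2 to 3 (AO, hom), 9 to 18 (AO over genotypes), 0 to 3 (poly(I:C), het), 4 to 12 (poly(I:C) over genotypes), 12 to 25 (between lines) and 0 to 0 (hom against WT with poly(I:C)). Each genotype has 3 or 4 lines, density has 1 line, and whether lines came from separate animals is not stated. Counting strand is not stated either, so reads of overlapping antisense genes cannot be told apart.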
